A study of Mus musculus with 6 samples.

Results

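Pax3, Pax7, Lbx1, Six4, Eya1, Eya2, Meox1 and Meox2 encode 8 regulators that act at or above the start of the skeletal muscle programme, and their RNA levels were compared between tongues of Tgfbr2 mutant and control mouse embryos. They were taken as every probe set whose only gene symbol in the platform annotation is a listed name, which gave 18 of the 45101 probe sets in the table and 8 of its 18193 genes. All 8 lay above the limit set for dim genes and were tested among 13645 genes.

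The tongues came from C57BL/6J mice at embryonic day 14.5, with 3 arrays per genotype. The mutants were Tgfbr2 fl/fl; Wnt1-Cre, that is, with loxP-flanked alleles of the type II TGF-beta receptor gene and a Cre recombinase that acts in neural crest cells and all that descend from them. The controls were Tgfbr2 fl/fl and had no Cre, so the floxed alleles were shared by both groups, although the control titles say wildtype. The series set out to learn why the tongue stays small when neural crest cells cannot receive TGF-beta, and which genes are affected while its muscle forms. In this design the muscle cells, which come from mesoderm, keep the receptor gene. Whole tongue was measured, so the arrays do not show in which cells a change took place. The labels do not say whether the arrays came from separate litters, so the p-values cover the spread among these 6 arrays, which may in part be technical. Xist and Y-linked genes read as both sexes within each genotype, so its arrays were not all repeats of a single sample.

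Muscle of the tongue descends from occipital somites, whose progenitors migrate into the tongue. Pax3 and Pax7 are paired-box transcription factors that mark and maintain such progenitors, and Lbx1 is a homeobox factor needed for their migration. Proteins of the Six4 family bind DNA through a homeodomain and recruit Eya proteins, cofactors with a phosphatase activity, to turn on Pax3 and the myogenic bHLH genes. Meox1 and Meox2 are homeobox factors of the somite, and Meox2 is also active in limb muscle and in blood vessels. None of these genes belongs to muscle alone: Pax3 and Pax7 are also expressed in the neural crest, and Eya1 in epithelia and sensory placodes.

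Promoter windows from RefSeq (GRCm38.p6), 250 bases before to 50 after an annotated start, were available for 3 of the 8 genes: Pax7, Six4 and Meox2. There were 4 windows in all, as Six4 has windows at different annotated starts. Stretches are shown for Meox2 and Six4, because each has a window with a match to a motif of muscle regulators. The motifs were chosen after the windows had been read. The stretch before the Meox2 start (chr12:37108290-37108539, plus strand) has in capitals a match to the MEF2 motif, at -32 to -23 from the start. The stretch of a Six4 window (chr12:73113325-73113354, minus strand) has in capitals the motif MEF3, which proteins of the Six4 family bind, on the opposite strand at -99 to -91. The match was in the window chr12:73113196-73113495 and in no other Six4 window. That window lies inside the annotated span of the gene (73099609 to 73114031), so its start is not the most upstream.
Meox2: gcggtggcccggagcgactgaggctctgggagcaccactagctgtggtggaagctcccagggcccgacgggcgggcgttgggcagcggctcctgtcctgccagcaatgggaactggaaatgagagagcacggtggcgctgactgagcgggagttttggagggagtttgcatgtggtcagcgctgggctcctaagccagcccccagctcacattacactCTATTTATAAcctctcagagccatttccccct
Six4: tggcctggggGAAACCTGAtcggccagatc
Both strands were searched. The MEF3 motif (TCAGGTTTC) was in 0.429% of 32851 windows of this length and the MEF2 motif in 3.19%. In the Meox2 window the MEF2 match overlaps a TATA box (TATAAA, in 13.6% of windows) on the opposite strand, and an E-box (CANNTG, in 72.3%) lies at -82 to -77. The Pax7 window holds a Smad box (CAGAC, in 49.6%) at -101 to -97 and none of the other motifs. The homeobox core TAATTA (in 5.29%) is in none of these windows. A match is a run of letters and not a measured binding site.

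Of the 8 genes, Meox1 alone passed the threshold, and it was lower in the mutants. Eya2 was higher in all mutants and just missed the threshold. Six4, Meox2 and, on its brighter probe set, Pax7 were lower in all mutants without passing. Pax3, Lbx1 and Eya1 overlapped between the genotypes. Calls were made with limma at an adjusted p under 0.05 over all tested genes, and 2.14% of tested genes passed (292 genes, or 490 with the title number as a block), 0.821% of them as lower and 1.32% as higher. The groups did not overlap for 5 of the 8 genes, 4 lower and 1 higher, against 25.1% of all tested genes. An unadjusted p under 0.05 was reached by 4 of the 8, against 16.9% of all tested genes. The log2 difference, mutant minus control, was below 0 for 6 of 8 genes, against 46.6% of tested genes. Its median was -0.31 over the 8 genes and 0.016 over all tested genes.

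Mutant array 1 stood apart from the other 5 arrays. Its Pearson correlations with them over tested genes were 0.9658 to 0.9782, whereas each of the other arrays reached at least 0.9924 with some other array. It had the lowest value of all 6 arrays for 7 of the 8 genes, Eya2 being the exception, against 32.6% of all tested genes. Without it the median difference of the 8 genes was -0.094. All values below are log2 RMA values, listed in the order of arrays 1, 2 and 3, and the difference of each of the 8 genes is also given without that array. Array values do not compare the abundance of 1 gene with another.

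**Figure D1:**
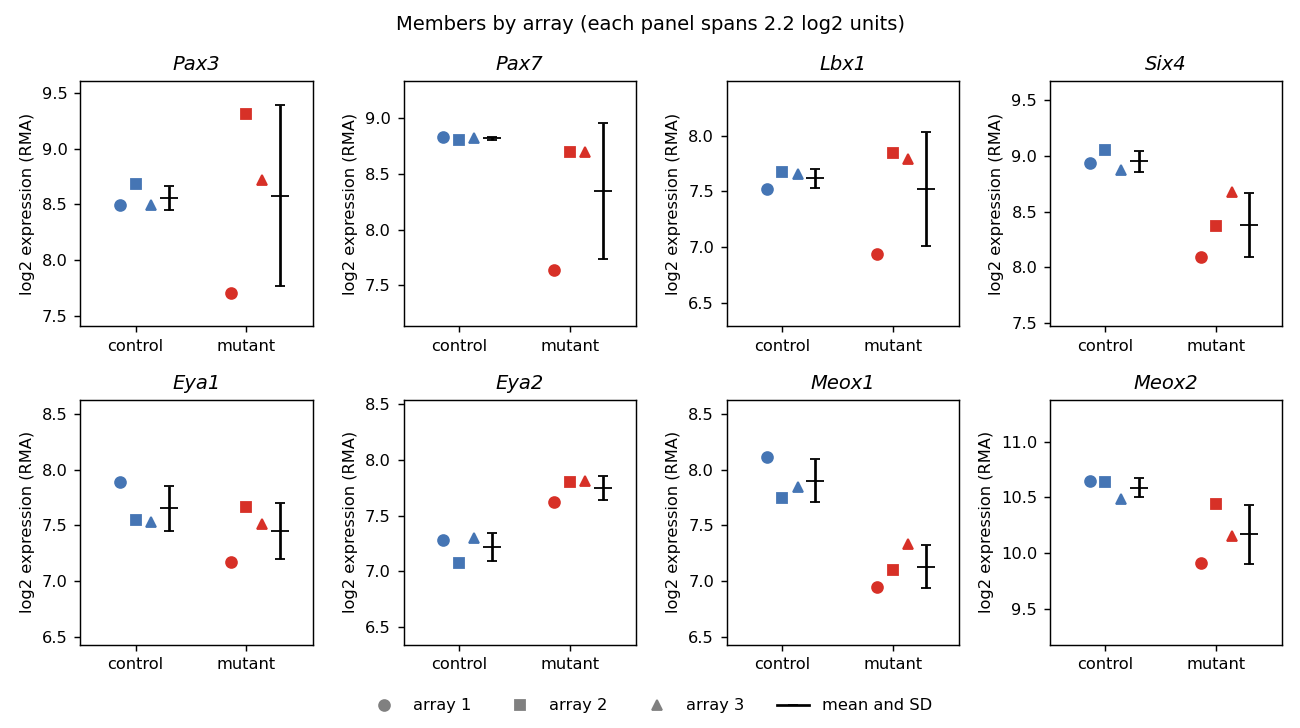
Log2 expression (RMA) of the 8 genes by array, controls in blue and mutants in red, with the group mean and SD (n = 3) beside the points. Each panel spans the same 2.2 log2 units. Meox1, Six4, Meox2 and Pax7 lie lower and Eya2 higher in all 3 mutants, and mutant array 1 (circle) is far below the rest for Pax3, Pax7 and Lbx1.

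Pax7, the paired-box gene that marks muscle progenitors and later satellite cells, was on its brighter probe set nearly constant in the controls and low in a single mutant. The controls read 8.83, 8.81 and 8.82 and the mutants 7.64, 8.70 and 8.70. Relative to the control mean, mutant arrays 2 and 3 were at -0.12, mutant array 1 was at -1.18, and the groups did not overlap. The difference was -0.47 (standard error 0.27, 95% interval -1.11 to 0.16, limma adjusted p = 0.428), and it was -0.12 without mutant array 1. The second Pax7 probe set gave mutant values of 6.21, 6.95 and 7.54 against 7.32, 7.58 and 7.62 in the controls. There mutant arrays 1 and 2 both lay below every control, while mutant array 3 lay within the range of the controls. The groups thus overlapped, with a difference of -0.61 (limma adjusted p = 0.358).

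Pax3, the paired-box gene of migrating progenitors and of early neural crest, had the widest spread among the mutants. The controls read 8.50, 8.68 and 8.50, and the mutants 7.71, 9.31 and 8.72. The lowest and the highest of the 6 values were thus both mutants. The mutants were at 8.58 ± 0.81 and the controls at 8.56 ± 0.11 (SD, n = 3 each). The difference of 0.020 (95% interval -0.81 to 0.85, limma adjusted p = 0.982) turned to -0.015 with arrays centred on their median and to 0.46 without mutant array 1 (limma adjusted p = 0.191), so no direction could be given. Its other probe sets differed by -0.13 and -0.21. In both, mutant array 1 was the lowest of the 6 arrays and mutant array 2 the highest.

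Lbx1, the homeobox gene of migrating hypaxial progenitors, showed the same low reading of mutant array 1. The mutant values were 6.94, 7.85 and 7.79 and the control values 7.52, 7.68 and 7.66. Mutant arrays 2 and 3 lay above every control, mutant array 1 below every control. The difference was -0.095 (95% interval -0.64 to 0.45, limma adjusted p = 0.868), and it turned to 0.20 without mutant array 1 and to 0.10 with array quality weights. On the other Lbx1 probe set mutant arrays 2 and 3 (7.20 and 7.22) lay within the range of the controls (7.10 to 7.26), and the difference was -0.080.

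Pax7, Pax3 and Lbx1 were lowest in mutant array 1, where the summed muscle, vessel and connective tissue markers were lowest too. So were the summed Schwann and neural markers (11.64) and cartilage markers (8.01). In the Schwann and neural list only Erbb3 (10.68), its brightest gene, and Tubb3 (6.55) were lowest in that array. Sox10 (7.82), Fabp7 (9.55) and Stmn2 (8.32) lay there above every control, and Foxd3 (7.42) within the range of the controls. Skeletal muscle markers were above the filter in 7 of 7 cases and all 7 had a negative difference, with 0 past the threshold (limma; 3 at an unadjusted p under 0.05, 1 called with array quality weights, 2 with the replicate block, 0 without mutant array 1). Their median difference was -0.69, or -0.29 without mutant array 1, and their summed level was 14.42 in mutant array 1, 14.99 and 15.17 in the other mutants, and 15.15 to 15.48 in the controls, on the log2 scale. Endothelial markers were below 0 in 5 of 5 cases, at 9.29 in mutant array 1, 10.20 in each of the other mutants and 10.40 to 10.50 in the controls. Epithelial markers went the other way, with 6 of 6 above 0 and summed levels of 14.04 to 14.62 in the mutants and 13.70 to 13.78 in the controls, highest in mutant array 1. Their median difference was 0.58 (0.47 without that array), and 0 passed (limma; 5 at an unadjusted p under 0.05, 2 called without that array, 3 with array quality weights, 2 with the block). Connective tissue markers spanned 14.63 to 15.08 in the mutants, lowest in mutant array 1, and 14.73 to 14.90 in the controls. No defining marker of the muscle, endothelial, epithelial and connective tissue lists was under the filter. In whole tongue, fewer cells of a type and less RNA per cell cannot be told apart, and the part of these markers in the results was not tested.

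Six4, the homeobox gene whose protein acts with Eya cofactors, read lower in every mutant. The control values were 8.93, 9.05 and 8.87 and the mutant values 8.09, 8.38 and 8.68. The highest mutant stayed below the lowest control. The difference of -0.57 (1.49-fold, standard error 0.15, 95% interval -0.93 to -0.22) did not pass (limma adjusted p = 0.12). It was -0.43 without mutant array 1, and the gene passed only with array quality weights (limma adjusted p = 0.0435). A second probe set, built on the same expressed sequence and named with the suffix that Affymetrix gives to probes able to read several transcripts, differed by -0.63 (limma adjusted p = 0.106). The third, built on another sequence, had the largest difference: the controls were at 8.30, 8.50 and 8.69 and the mutants at 7.53, 7.46 and 7.99. It differed by -0.84 (standard error 0.17, limma adjusted p = 0.0689 among all probe sets), again without overlap. The fourth Six4 probe set was under the filter value of 5.17 and differed by -0.013.

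Eya1 and Eya2, the cofactor genes, had differences of opposite sign. Eya2 read 7.28, 7.08 and 7.30 in the controls and 7.63, 7.81 and 7.81 in the mutants, every mutant above every control. The difference of 0.53 (1.44-fold, standard error 0.10, 95% interval 0.28 to 0.77) had a limma adjusted p of 0.0548. Eya2 was the 1 gene of the 8 with a higher reading in mutant array 1 than in the controls, and without that array the difference was 0.59 and passed (limma adjusted p = 0.0187). It passed as well with array quality weights (limma adjusted p = 0.0115) and with a further quantile normalization (0.0407). Without control array 2 the adjusted p was 0.264. Eya2 has a single probe set on the array. With gene values as means of probe sets it also passed (limma adjusted p = 0.0398), but its own values and difference are unchanged there. Only the values of other genes differ in that setting, so it is no further check of Eya2.

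Eya1 read 7.89, 7.54 and 7.53 in the controls and 7.17, 7.67 and 7.51 in the mutants, and these overlapped. Its difference was -0.21 (95% interval -0.58 to 0.16, limma adjusted p = 0.551), or -0.067 without mutant array 1. A dim Eya1 probe set, under the filter and therefore untested, read 4.74, 5.23 and 4.79 in the controls and 4.62, 4.44 and 4.45 in the mutants, which did not overlap. The third, also dim, differed by -0.084. The difference between the changes of Eya2 and Eya1, taken within each array, was 0.73 (standard error 0.14), with all 3 mutants above all 3 controls. An exact 2-sided permutation test gave p = 0.1, the smallest that 3 against 3 arrays allow, and 0.15 adjusted over the 3 pairs compared. It was 0.65 without mutant array 1.

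Meox1, a homeobox gene of the somite, fell by 0.78 (1.71-fold) in the mutants. The control values were 8.11, 7.74 and 7.85, and the mutant values 6.95, 7.10 and 7.33. The highest mutant lay 0.41 below the lowest control, and mutant array 1, though again the lowest, was close to mutant array 2. The means were 7.90 ± 0.19 and 7.13 ± 0.19 (SD, n = 3 each), the standard error of the difference was 0.14 and its 95% interval -1.10 to -0.45 (limma adjusted p = 0.0387). Without mutant array 1 the difference was -0.69 (limma adjusted p = 0.0356), and with the title number as a block the adjusted p was 0.0436. The call was lost without mutant array 2, control array 1, control array 2 or control array 3 (limma adjusted p = 0.125, 0.118, 0.13 and 0.171, differences -0.76, -0.67, -0.85 and -0.80) and with sex as a covariate (0.0671, difference -0.83). Meox1 is read by a single probe set, so no second reading on the array checks it.

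Meox2, the related gene that is also active in vessels, was lower in all mutants by a smaller amount. The controls read 10.64, 10.63 and 10.49 and the mutants 9.91, 10.44 and 10.15. The groups did not overlap, but mutant array 2 was only 0.046 below the lowest control. The difference was -0.42 (1.34-fold, standard error 0.14, 95% interval -0.75 to -0.089, limma adjusted p = 0.2) and -0.29 without mutant array 1. The second Meox2 probe set gave -0.40 (limma adjusted p = 0.193) with the same order of arrays among the mutants. The brighter of the pair carries a suffix for probes able to read more than a single transcript. The change of Meox1 exceeded that of Meox2 by -0.36 on the log2 scale (standard error 0.19, exact 2-sided permutation p = 0.2, also 0.2 adjusted over the 3 pairs; -0.39 without mutant array 1). Taken within title numbers 1, 2 and 3, it was -0.44, -0.45 and -0.18, all of the same sign, with an exact sign-flip p of 0.25, the smallest that 3 pairs allow. Neither test can pass 0.05 at this size. For Pax7 and Pax3 the changes differed by -0.49 (standard error 0.20, exact permutation p = 0.1, adjusted 0.15; -0.58 without mutant array 1). The sign-flip test within title numbers also gave 0.25 for this pair and for Eya2 and Eya1, with 3 of 3 differences of the same sign in each.

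**Figure D2:**
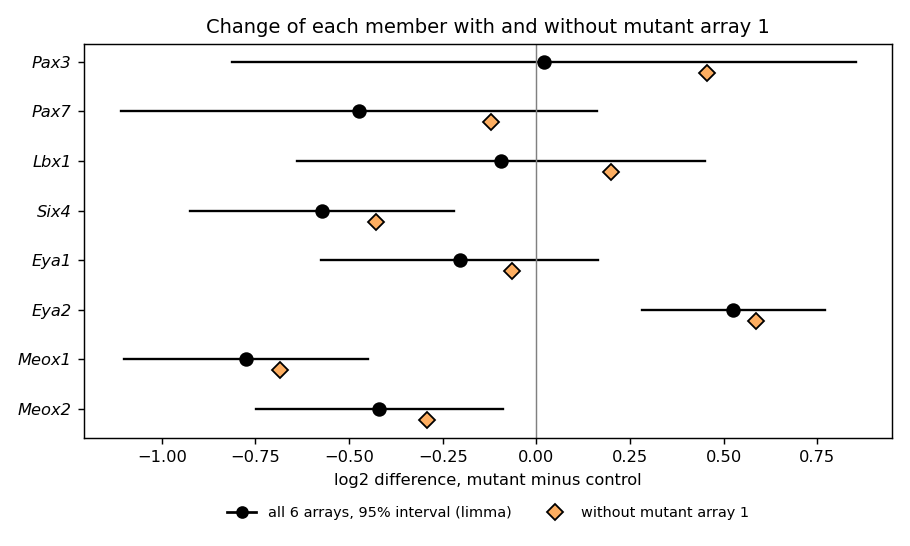
Log2 difference of each gene, mutant minus control, with its 95% interval from limma over 6 arrays (black), and the same difference without mutant array 1 (diamonds). Leaving that array out moves Pax3 from 0.020 to 0.46 and Pax7 from -0.47 to -0.12, while Meox1 goes from -0.78 to -0.69 and Eya2 from 0.53 to 0.59.

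Of the 18 probe sets, 15 lay above the filter value, 16 had a negative difference, against 48.2% of all 34945 probe sets with 1 gene, and 9 did not overlap between the genotypes, against 21.6%. The 6 genes with several probe sets kept their sign on all of them, except Pax3, whose brightest probe set was the only positive reading of its 3. Probe sets of 1 gene share the RNA and the arrays, so they repeat the measurement of a gene without adding samples.

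**Figure D3:**
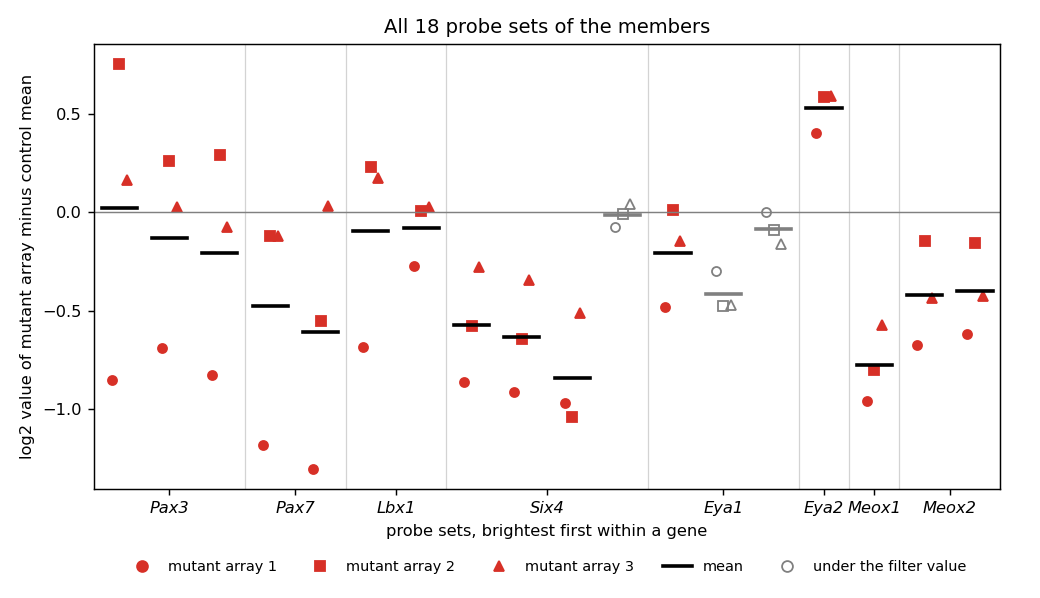
Each mutant array's log2 value minus the control mean for all 18 probe sets, brightest first within a gene, with the mean as a bar. The 3 bright Six4 probe sets have all their mutant values below 0, and open grey symbols mark the 3 probe sets under the filter value.

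Across the 6 arrays, 3 genes were named for each member whose centred profile lay closest to it, by the root mean square difference on the log2 scale. For Meox1 these were Gja5, a connexin gene (0.069), Gbp7, a guanylate-binding protein gene (0.072), and Cldn5, a claudin gene (0.083). Cldn5 is in the endothelial marker list, which had 5 of 5 members below 0 and 0 called (limma; 1 at an unadjusted p under 0.05, 1 called with array quality weights, 1 without mutant array 1, 0 with the block), with a median of -0.49, or -0.19 without mutant array 1. The part of vessel cells in the Meox1 result was not tested. For Eya2 the closest were Unc13b (0.042), Sytl4 (0.058) and Mtus1 (0.061), and for Six4 Ddx21 (0.047), Skp2 (0.066) and Ehd4 (0.067). Meox2 was closest to Epha4 (0.044), Mcph1 (0.060) and Tspan33 (0.061). Eya1 was closest to Kif5c (0.038), Drosha (0.044) and Foxred2 (0.045). Pax7 was closest to Stard13 (0.052), Rasgrp3 (0.055) and Arhgap28 (0.058), Lbx1 to Col5a2 (0.036), Frem1 (0.036) and Serac1 (0.040), and Pax3 to Cacna1d, P3h2 and Adgra2 at 0.11 to 0.12.

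The relatives of these genes in the Pax, Six4, Eya, Lbx and Dach families did not pass. Of 17 listed, 15 were read by an unambiguous probe set and 11 of these lay above the filter, while Pax5, Pax8, Six6 and Lbx2 were under it. Among the 11, 5 differences were below 0, the median was 0.00060, and 0 passed (limma; 2 at an unadjusted p under 0.05, and 0 with array quality weights, with the block or without mutant array 1). Those 2 were Pax9, a gene of pharyngeal and oral mesenchyme, with mutant values of 9.30, 9.13 and 8.86 against 8.75, 8.54 and 8.68 (difference 0.44, 0.34 without mutant array 1, limma adjusted p = 0.154), and Six2, with 7.22, 7.001 and 7.17 against 7.64, 7.40 and 7.35 (difference -0.33, -0.38 without mutant array 1, limma adjusted p = 0.2). Neither overlapped between the genotypes. Dach2, a corepressor gene that works with Eya proteins, differed by 0.31 (limma adjusted p = 0.448).

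Among 21 listed genes that act beside or below the 8 regulators, 20 were measured, all above the filter, and 1 passed. Msc, which encodes the bHLH repressor musculin of branchial and somitic muscle progenitors, fell by 0.66, with mutant values of 8.90, 9.10 and 9.08 against 9.70, 9.68 and 9.69 in the controls (limma adjusted p = 0.0188; difference -0.59 without mutant array 1). The list had 14 negative differences and a median of -0.081, or -0.033 without mutant array 1. Myf6, a myogenic bHLH gene, read 7.67, 7.35 and 7.65 in the mutants and 8.01, 8.58 and 8.58 in the controls (difference -0.83, -0.89 without mutant array 1, limma adjusted p = 0.0682). Cxcl12, the ligand that guides migrating progenitors through Cxcr4, read 10.57, 10.59 and 10.80 against 10.33, 9.87 and 9.74 (difference 0.67, 0.71 without mutant array 1, limma adjusted p = 0.0983). Tcf15, a bHLH gene of the somite, read 7.83, 8.01 and 8.003 against 8.80, 8.29 and 8.39 (difference -0.54, -0.48 without mutant array 1, limma adjusted p = 0.122). None of these 3 overlapped between the genotypes.

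Leaving out mutant array 1 raised the number of this list past the threshold from 1 to 4, while the share of all tested genes that passed rose from 2.14% to 4.91%. The 3 added genes are named after their values were seen. Dmrt2, a target of Pax3 in the dermomyotome, had its highest value in mutant array 1 (8.79) and its lowest in mutant arrays 2 and 3 (7.01 and 7.36), against 7.77 to 7.86 in the controls. Its difference was -0.11 over all arrays and -0.64 without that array (limma adjusted p = 0.0279). Tbx1, a T-box gene of pharyngeal muscle progenitors, differed by -0.35 (limma adjusted p = 0.0492) and Gab1, an adaptor of the Met receptor, by 0.39 (limma adjusted p = 0.0431) without that array. With all arrays these gave -0.31 and 0.24 without passing. With array quality weights 4 of the 20 passed as well, against 7.58% of all tested genes, and 1 with the replicate block, against 3.59%.

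**Figure D4:**
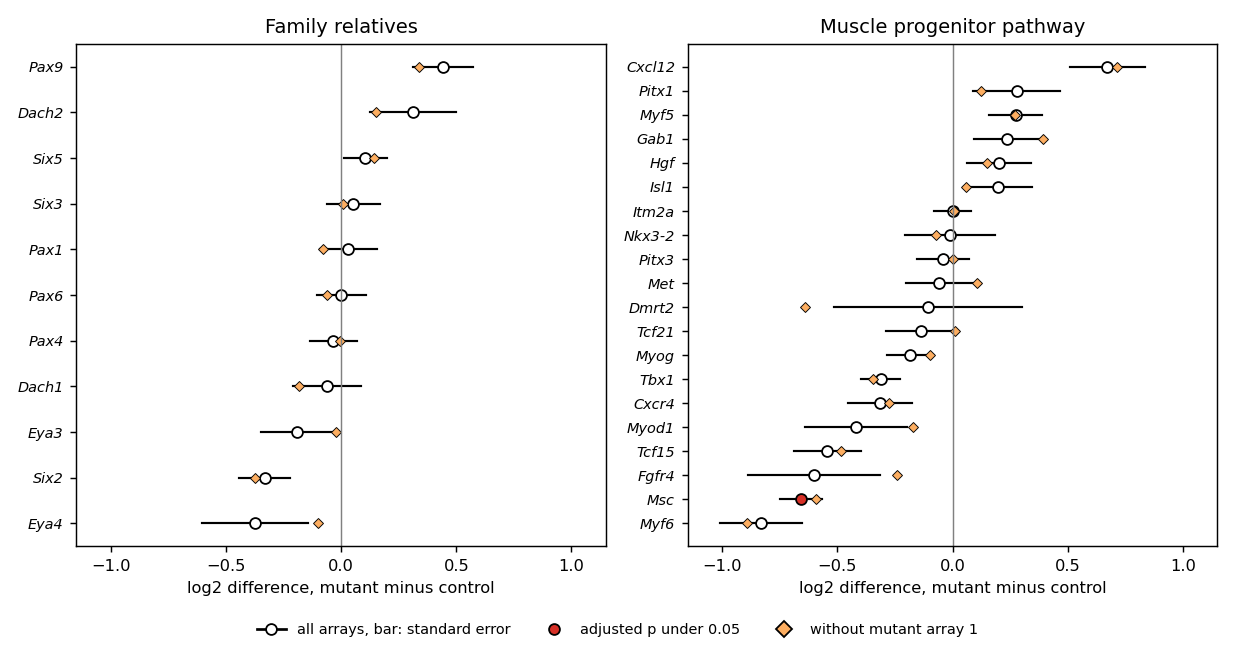
Log2 differences, mutant minus control, of the 11 tested family relatives (left) and the 20 tested pathway genes (right), with standard errors as bars; red marks an adjusted p under 0.05 and diamonds the value without mutant array 1. Msc is the only red point, and Dmrt2 moves most when the array is left out, from -0.11 to -0.64.

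Tgfbr2 itself, bright in all tongues, differed by -0.18 (limma adjusted p = 0.642) and by 0.014 without mutant array 1. Skeletal muscle, epithelial and endothelial cells are not targeted by the Cre. No source used here says where the probes lie relative to the deleted part, so this does not check the labels. Of other cell types that the tongue holds, the macrophage list had 5 of 5 differences above 0 with 2 past the threshold, the complement genes C1qa (1.05) and C1qb (0.87). The Schwann and neural list had 5 of 6 above 0 with 1 past it, the neuronal gene Stmn2 (1.07). Without mutant array 1 the count of that list was 4, with Sox10 (0.47), Fabp7 (0.76) and Tubb3 (0.59) added. With array quality weights it was 3, and with the replicate block 2. The connective tissue list had 4 of 6 differences below 0 and a median of -0.11, or 0.017 without mutant array 1. In it 1 of 6 passed, the proteoglycan gene Dcn (0.65). All of these are named after their values were seen. Schwann and neural markers were at 11.64 to 12.17 in the mutants and 11.71 to 11.78 in the controls as summed log2 levels. Cartilage markers had 3 tested members, all below 0, with Matn1 under the filter, and red cell markers had 1, with Hba-a1 under it.

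The calls on Meox1, Eya2 and Six4 depended on the settings, although leaving out a single array never gave Six4 a call. Over 16 alternative settings Meox1 ranged from -0.88 to -0.63 and lost its call in 5. Eya2 ranged from 0.45 to 0.61 and gained a call in 4, and Six4 ranged from -0.72 to -0.43 and gained a call in 1. None of these 3 changed sign in any setting run.

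**Figure D5:**
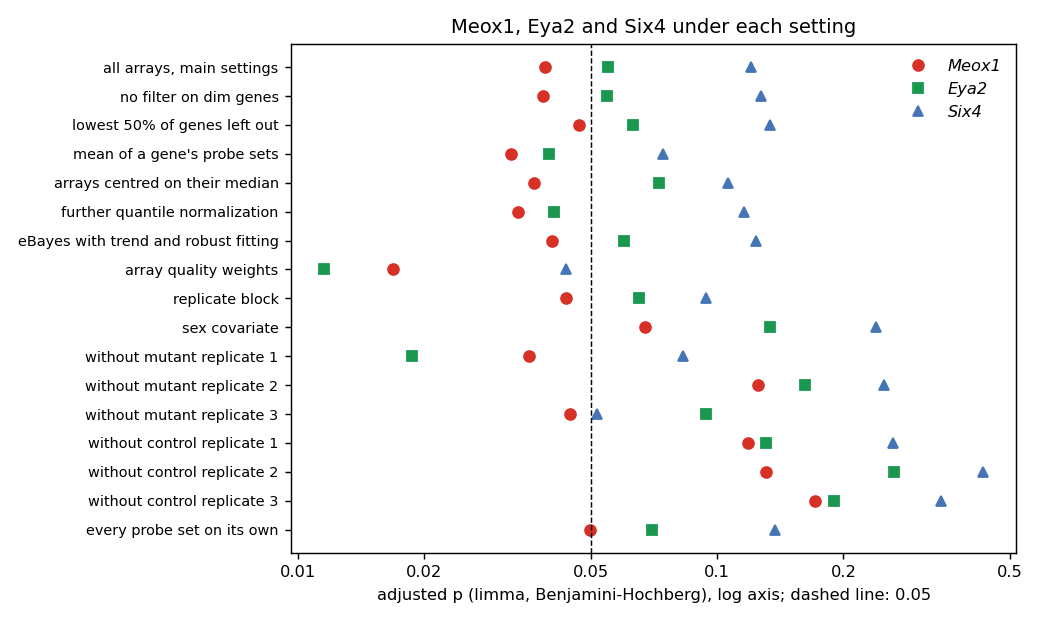
Adjusted p (limma, log axis) of Meox1, Eya2 and Six4 under the main settings and 16 alternatives, with the threshold of 0.05 as a dashed line. Meox1 crosses to the right without mutant array 2, without each control array and with the sex covariate, and Eya2 lies left of the line in 4 settings.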

How the data were processed

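The RNA of 6 tongues was labelled as biotinylated cRNA and read on Affymetrix arrays, per the labels. The deposited table holds log2 values that the authors made with RMA, per the submitters' processing notes, with no version given. RMA equalizes the arrays' distributions and compresses differences of dim probe sets. Probe sets with 1 gene symbol were kept (34945), the probe set with the highest mean stood for a gene, and the lowest 25% of genes (under 5.17) were left out. The genotypes were tested in R 4.3.3 using limma 3.58.1 (lmFit, eBayes, 2-sided, Benjamini-Hochberg over 13645 genes), checked on simulated data. Arrays have no depth, and their number limits the precision: the median standard error was 0.117.

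The members and lists were chosen with earlier results of these data known. Named are all members, Tgfbr2, list genes that passed with up to 3 others of smallest p per list, and 3 nearest profiles per member (clone-type symbols left out). Array deviations with the same title number correlated at 0.309, 0.105 and 0.206, all over 0.1, so by the rule used the title numbers pair the arrays, a pairing that rests on the titles and these values. All fits and exact tests given first are unpaired, and the block is given where it changes a call or a count. Sex, for a covariate, was read from Xist and Y-linked genes: Xist was high in 2 of 3 mutants and 1 of 3 controls, so sex was not balanced between the genotypes. Figures were drawn with matplotlib 3.10.9.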

Additional observations from a re-analysis of the deposited data

How the results depend on the processing

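With 3 arrays per group, the number of calls turned on single arrays. The count of all tested genes past the threshold was 292, and 151 when the dimmer 50% were left out, 1034 with array quality weights, 135 with the sex covariate, 490 with the replicate block and 16 to 670 with 1 array left out. Of the 8 regulators 1 passed (Meox1), against 2 with means of probe sets, 2 with a further quantile normalization, 3 with array quality weights, 0 with the sex covariate and 0 to 2 with 1 array left out. The count was also 1 with the replicate block, which changed no call among the 8. Pax3 turned negative with arrays centred on their median (-0.015) and with means of probe sets (-0.11), and ranged from -0.34 to 0.46 with 1 array left out. Lbx1 turned positive with array quality weights (0.10) and the sex covariate (0.0098), and ranged from -0.26 to 0.20 with 1 array left out. The cause was not tested. The other 6 genes kept their direction in all 16 alternatives, and the 3 differences between paired regulators kept theirs in all that were run on them, the pairing within title numbers, added after the data were seen, included. Dim probe sets lie close to background, where differences are compressed.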
